A study of Rattus norvegicus with 4 samples.

Results

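The 8 genes described here are cyclic nucleotide phosphodiesterases measured in nuclei of the rat nucleus accumbens: Pde10a, Pde1a, Pde1b, Pde1c, Pde2a, Pde4b, Pde4d and Pde7b. They were found by symbol in the deposited gene list, where all 8 were present among 30560 genes, and they were chosen with earlier results of these data known. They were selected on measured values, a higher Pde10a level in astrocyte nuclei and a lower Pde4d level in oligodendrocyte nuclei of cocaine-treated rats, and both are therefore given below as values, with no test. The data are single-nucleus RNA-seq of adult Sprague-Dawley rats, 90 to 120 days old. One group received cocaine at 20 mg/kg and the other an equal volume of physiological saline, both by daily intraperitoneal injection for 7 days followed by an open field, and the brains were collected 1 hour after the final dose. Each treatment has 1 female and 1 male library, each pooled from 4 rats with a 2 mm punch centred on the accumbens core, so there are 2 libraries per treatment and 16 rats in all. A pool cannot show the spread between the rats in it, and the punch can hold tissue next to the core.

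Phosphodiesterases break down cAMP and cGMP and so end signals that start at receptors such as the dopamine receptors. In the projection neurons that make up most of the striatum, the medium spiny neurons (MSN), D1 receptors raise cAMP and D2 receptors lower it, and phosphodiesterases set how far and how long the signal spreads. Pde10a and Pde2a act on both nucleotides, with Pde2a stimulated by cGMP. Pde1a, Pde1b and Pde1c are switched on by calcium and calmodulin, while Pde4b, Pde4d and Pde7b are specific for cAMP. Pde10a is known as a gene with very high expression in MSN, and inhibitors of its enzyme have been tried as psychiatric and neurological drugs.

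Pde10a is the gene with the largest difference between treatments among the 8, so its promoter sequences are shown. RefSeq on build GRCr8 gives it a pair of promoters on the minus strand of chromosome 1, printed 5′ to 3′ for the 250 bases before each start. Capitals mark TGACGT, or ACGTCA on the other strand, the core of the cAMP response element bound by CREB family factors.
Pde10a promoter at chr1:54765669-54765918: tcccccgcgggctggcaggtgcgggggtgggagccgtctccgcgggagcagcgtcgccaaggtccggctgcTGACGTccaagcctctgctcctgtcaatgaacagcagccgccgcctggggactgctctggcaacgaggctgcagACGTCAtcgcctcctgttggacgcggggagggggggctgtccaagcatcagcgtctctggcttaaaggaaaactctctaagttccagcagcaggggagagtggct
Pde10a promoter at chr1:54501207-54501456: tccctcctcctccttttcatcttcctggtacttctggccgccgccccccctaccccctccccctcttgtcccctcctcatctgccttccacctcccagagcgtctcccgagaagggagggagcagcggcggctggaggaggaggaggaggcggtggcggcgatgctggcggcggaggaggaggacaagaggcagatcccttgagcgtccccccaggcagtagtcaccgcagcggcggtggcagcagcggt
The first window holds the 6 letters at 179 and at 105 bases upstream, and these letters are not in the second window. Of 33469 promoter windows of this length, 6.95% hold the letters on either strand and 1.89% hold them 2 or more times, where the full palindrome TGACGTCA, present in 1.59%, counts as 2. Promoters were matched for 6 of the 8 members, 13 windows in all. Of the other windows only 1 of Pde4d holds the letters, once, 194 bases upstream. The deposited counts cover whole genes and do not say which promoter was used.

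The libraries held 31484217 to 40737786 UMIs (unique molecular identifiers, each 1 captured RNA molecule), with median depths of 4363 to 5066 UMIs over all deposited barcodes. After filters and removal of doublets 24843 nuclei were kept. Nuclei were sorted into 13 classes by marker genes that include no phosphodiesterase, and a class name stands for nuclei like that type: 3671 D1-MSN, 3522 D2-MSN, 1269 MSN marked by Grm8, 1906 other GABAergic, 185 Pthlh/Kit, 202 Sst and 102 cholinergic interneuron, 400 glutamatergic, 1776 astrocyte, 6480 oligodendrocyte, 1085 oligodendrocyte precursor, 775 microglia and 79 vascular nuclei. The 13 astrocyte markers made up 160 of 10000 UMIs in astrocyte nuclei and the 5 general MSN markers 2.22. The gate caps the general MSN markers in glia at 15 of 10000 UMIs, so their low level there is partly set by it. Sst interneurons carried the general MSN markers at 17.6 of 10000 UMIs, mostly Rarb and Bcl11b. Glutamatergic nuclei were unevenly caught, with 37 to 210 per library. Of all deposited barcodes, 81 occur in 2 or more libraries. In summed nuclei, fewer expressing cells and less RNA per cell cannot be told apart. Levels are UMIs of the gene per 1000000 UMIs of the class in a library (CPM), and they are compared between classes for 1 gene, never between genes, since the files give no gene lengths.

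Pde10a was highest in MSN. Its level was 2760 ± 117 CPM in D2-MSN and 2548 ± 69 CPM in D1-MSN (mean ± SD, n = 4 libraries), and the ranges of the pair overlapped. A gap separated both from the Grm8 MSN at 1612 ± 207 CPM. The Sst, glutamatergic, Pthlh/Kit and cholinergic classes followed with overlapping ranges, between 977 and 1555 CPM on average, and other GABAergic neurons held 751 ± 62 CPM. Among glia, oligodendrocyte precursors carried 639.5 ± 8.9 CPM, with 628 to 647 CPM over the 4 libraries. Astrocytes spanned 40.3 to 534 CPM. Oligodendrocytes at 42.1 ± 8.5 CPM and microglia at 38.8 ± 19.5 CPM were lowest. Pde2a followed a like order, with 365 ± 21 CPM in D2-MSN and 336 ± 15 CPM in D1-MSN, and it stayed under 13 CPM in every library of astrocytes, oligodendrocytes and microglia.

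**Figure D1:**
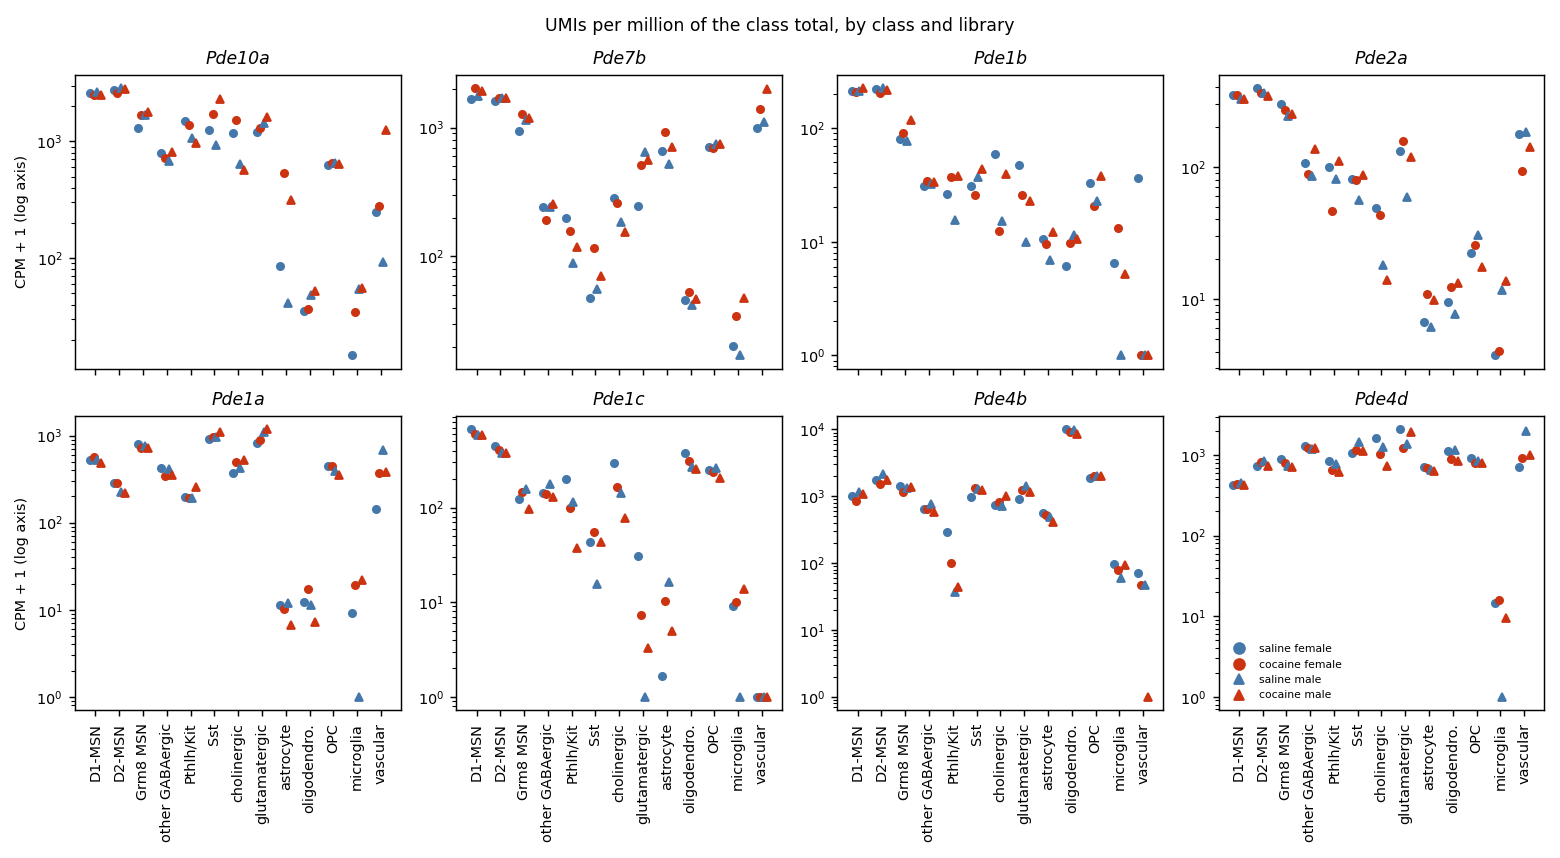
Levels of the 8 phosphodiesterase genes in 13 classes, as CPM + 1 on a log axis; each point is 1 library, coloured by treatment and shaped by sex. Pde10a, Pde1b and Pde2a have their highest points in D1-MSN and D2-MSN, Pde4b has its in oligodendrocytes, and the astrocyte points of Pde10a split by treatment.

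The calcium-regulated enzymes differed in where they were found. Pde1b was an MSN gene, with 215 ± 10 CPM in D2-MSN and 212 ± 8 CPM in D1-MSN, and 90.0 ± 18.9 CPM in Grm8 MSN, above all other classes. Pde1a was highest in glutamatergic neurons at 998 ± 172 CPM and Sst interneurons at 983 ± 78 CPM, whose ranges overlapped. Grm8 MSN followed at 752 ± 34 CPM and D1-MSN at 530 ± 36 CPM, each range apart from the class above it. In astrocytes, oligodendrocytes and microglia Pde1a stood at 9.0 to 11.9 CPM on average. Pde1c was highest in D1-MSN at 608 ± 42 CPM, then D2-MSN at 401 ± 34 CPM, then oligodendrocytes at 300.3 ± 54.1 CPM, with no overlap between neighbours. Its level in glutamatergic nuclei was 0 to 29.7 CPM, a class where Pde1a led.

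Among the cAMP-specific genes, Pde4b had its highest level in a glial class. It reached 9438 ± 635 CPM in oligodendrocytes, with a wide gap to the next class, the oligodendrocyte precursors at 1978 ± 56 CPM. Its lowest levels in tested classes were 118 ± 119 CPM in Pthlh/Kit interneurons and 81.5 ± 16.8 CPM in microglia. Pde4d was spread most evenly, between 670 and 1657 CPM on average in 11 of 13 classes. It was set apart downward in D1-MSN at 438 ± 11 CPM and was close to absent from microglia, with 12 UMIs in 775 nuclei. Pde7b was highest in D1-MSN at 1843 ± 163 CPM and D2-MSN at 1673 ± 41 CPM. The few vascular nuclei, at 1369.7 ± 450.5 CPM, overlapped D2-MSN, and Pde7b was also present in oligodendrocyte precursors at 721 ± 28 CPM and astrocytes at 699 ± 168 CPM. Oligodendrocytes held only 46.1 ± 4.5 CPM of Pde7b.

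Patterns over the 13 class means were compared with 7628 genes that reached 50 CPM in some class, as Pearson r of log2(CPM + 1), a description over points that share libraries. Pde10a was closest to Dbn1, which binds actin in dendritic spines (r = 0.96), Erich3 (0.96) and Ccdc30 (0.96). Pde1b was closest to Trerf1 (0.94), Cenpp (0.94) and Gnal (0.94), the G protein subunit that couples D1 receptors to adenylyl cyclase in striatum. The nearest genes were Rps6kl1, Tub and Ptprr for Pde1a, Prkcsh, Kctd8 and Kif17 for Pde1c, and Ism1, Cx3cl1 and Agap2 for Pde2a. For Pde4b they were Grb14, Grik4 and Fbxo31, for Pde4d Ank2, Cttn and Garem1, and for Pde7b Hlf, Frmd6 and Dpy19l3. Among the 8 themselves, Pde10a was most like Pde1a (r = 0.85), Pde2a (0.84) and Pde1b (0.83) and least like Pde4b (0.10).

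The D1-MSN and D2-MSN of the same libraries were compared next, a contrast that the choice of genes did not use. Of the 8 genes, 7 passed the test (edgeR quasi-likelihood test with library as a block, Benjamini-Hochberg adjusted p under 0.05), while 14.3% of 12597 genes passed. Pde1a showed the largest difference. With the female libraries first and saline before cocaine in each sex, its level was 530.0, 575, 528 and 486 CPM in D1-MSN and 287, 283, 227 and 221 CPM in D2-MSN. Every D1-MSN value lay above every D2-MSN value, and the log2 difference was 1.06 ± 0.04 (SE, adjusted p = 4.44e-12, edgeR). Pde1c was also higher in D1-MSN, at 671, 595, 587 and 581 CPM against 450.4, 400, 377 and 379 CPM, a log2 difference of 0.60 ± 0.03 (adjusted p = 8.21e-11, edgeR). These calcium-regulated enzymes were thus both higher in D1-MSN, whereas the third, Pde1b, differed by a log2 of -0.02 ± 0.04 (adjusted p = 0.855, edgeR).

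Both Pde4 genes were lower in D1-MSN. Pde4d stood at 431, 443, 449.9 and 428 CPM in D1-MSN against 737, 820.5, 844 and 734 CPM in D2-MSN in the same order of libraries, a log2 difference of -0.84 ± 0.03 (adjusted p = 2.23e-12, edgeR). Pde4b stood at 1012, 864, 1177 and 1076 CPM in D1-MSN against 1742, 1536, 2125 and 1758 CPM in D2-MSN, a log2 difference of -0.80 ± 0.03 (adjusted p = 1.18e-12, edgeR). Neither gene's ranges overlapped. Pde10a and Pde2a were lower in D1-MSN by small amounts, log2 -0.12 ± 0.03 (adjusted p = 0.00374) and -0.12 ± 0.03 (adjusted p = 0.0235, both edgeR), with overlapping ranges. Pde7b was higher by a log2 of 0.13 ± 0.04 (adjusted p = 0.0176, edgeR). Without the library block Pde10a, Pde2a and Pde7b no longer passed, and when classes were taken from clusters in place of the gate Pde7b changed sign, to -0.06.

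Between cocaine and saline, Pde10a in astrocyte nuclei moved most. Its level was 84.3 CPM (132 UMIs in 434 nuclei) in the saline female library and 40.3 CPM (55 UMIs in 454 nuclei) in the saline male library. In the cocaine libraries it was 534 CPM (805 UMIs in 449 nuclei) in females and 315 CPM (393 UMIs in 439 nuclei) in males. Both cocaine libraries stood above both saline libraries, and the fitted log2 difference was 2.75, a description and not a test, since this value chose the genes. In the other glia no such gap was seen: oligodendrocytes held 34.3 and 47.7 CPM in saline and 35.4 and 50.8 CPM in cocaine libraries, females first. Oligodendrocyte precursors held 628 and 646 CPM in saline and 647 and 637 CPM in cocaine libraries. Microglia held 13.7 and 53.6 CPM in saline and 33.3 and 54.7 CPM in cocaine libraries, on 39 UMIs in all. Whether the difference between astrocytes and other glia exceeds error was not tested.

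The added Pde10a UMIs sat in a minority of astrocyte nuclei. In every library the median astrocyte had 0 Pde10a UMIs. Nuclei with at least 3 UMIs, a limit chosen after the values were seen, numbered 13 of 434 in saline females, 3 of 454 in saline males, 95 of 449 in cocaine females and 49 of 439 in cocaine males. As shares these are 3.00% and 0.66% against 21.2% and 11.2%, with exact binomial 95% intervals of 1.60% to 5.07%, 0.14% to 1.92%, 17.5% to 25.2% and 8.37% to 14.5%, which cover counting error only. Such nuclei held 88.1% and 81.9% of the class's Pde10a UMIs in the cocaine libraries and 56.1% and 16.4% in the saline libraries, females first. A share above a fixed limit rises with the level. The 5% of nuclei with most Pde10a held 65.9% and 63.6% of the UMIs in saline and 38.1% and 55.7% in cocaine libraries. That share is pushed up where UMIs are few, as in the saline libraries, so it leans the opposite way. Neither measure can say whether the UMIs were more or less concentrated with cocaine. The most loaded nucleus had 38 UMIs in the cocaine female library, 18 in the cocaine male, 17 in the saline female and 3 in the saline male library. Astrocytes with at least 10 UMIs numbered 19 in cocaine females and 8 in cocaine males, against 2 and 0 with saline.

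Depth did not differ in that direction. Median UMIs per astrocyte nucleus were 3464.5 and 2867 in the saline and 3223 and 2592 in the cocaine libraries, females first. With each nucleus thinned to 1000 UMIs, leaving out 1 to 4 shallower nuclei per library, a Pde10a UMI was seen in 6.02% and 4.42% of saline and in 25.9% and 15.9% of cocaine astrocytes. Before thinning the shares were 15.4%, 9.47%, 36.3% and 24.4% in the same order. Oligodendrocytes and microglia, which are not known for this gene, gave thinned shares of 2.39% to 4.12% and 1.52% to 5.84% at median depths of 1150 to 2005 UMIs. The saline astrocyte shares thus lie at or just above these. By this share, the level that free RNA or a few stray MSN molecules would give cannot be told apart from low expression there. Before thinning, 3 or more UMIs were seen in 3.00% and 0.66% of saline astrocytes and 0.37% and 0.31% of saline oligodendrocytes, which were shallower. The most in 1 nucleus was 17 and 3 against 5 and 4. The source of these UMIs was not tested.

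**Figure D2:**
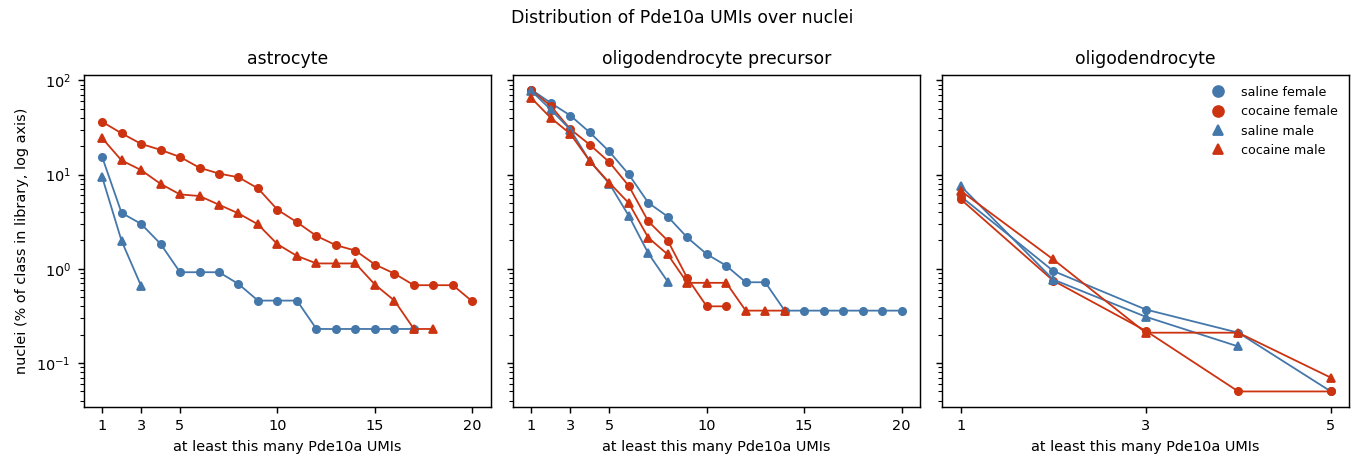
Share of nuclei (log axis, percent of the class in a library) with at least the number of Pde10a UMIs on the horizontal axis, for astrocytes, oligodendrocyte precursors and oligodendrocytes; each line is 1 library. In astrocytes both cocaine lines lie above both saline lines from 1 to 15 UMIs, with 21.2% and 11.2% of nuclei at 3 or more UMIs. At 3 or more UMIs the precursor lines are at 42.3% and 29.9% in saline and 30.3% and 27.05% in cocaine libraries, females first. The oligodendrocyte lines are at 0.37% and 0.31% against 0.22% and 0.21%. Depth is not corrected for, and it was highest in the saline female library.

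Other MSN RNA was measured in the same astrocyte nuclei, since Pde10a is abundant in MSN. A list of 15 MSN-rich genes not used by the gate summed to 1098 and 1097 CPM in the saline and 1104 and 1281 CPM in the cocaine libraries. Of these genes 7 were higher in both cocaine libraries and 0 lower, beside 20.6% of all 10416 tested genes that were higher in both. From 78.8% to 85.6% of the sum came from Meis2 and Phactr1. The other 13 genes, set apart after the values were seen, summed to 185 and 158 CPM in the saline and 217 and 272 CPM in the cocaine libraries. Pde10a UMIs per 100 UMIs of these 13 genes were 45.5 and 25.5 in saline astrocytes and 246 and 116 in cocaine astrocytes. In MSN the same ratio was 35.8 to 38.4 in D1-MSN and 46.1 to 51.7 in D2-MSN. With saline, it was 99.4 and 106.8 in oligodendrocyte precursors and 13.5 and 18.4 in oligodendrocytes, females first. Kcnip2, the largest of the 13 genes in astrocytes, held 51.3 to 68.2 CPM there and 8.4 to 17.1 CPM in oligodendrocytes. Adcy5, the next, held 33.7 to 47.4 CPM in astrocytes and 144.1 to 165.3 CPM in oligodendrocytes. The ratio was thus higher in cocaine than in saline astrocytes. How much of the RNA of these 13 genes in astrocytes came from MSN was not tested, so the astrocyte and MSN ratios may not be comparable.

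In the astrocytes with at least 3 Pde10a UMIs, some defining MSN genes were at or near 0 and others were not. Drd1 and Drd2, the dopamine receptor genes, had 0 UMIs in the 95 nuclei of the cocaine female library and in the 49 nuclei of the cocaine male library. A count of 0 in 1 library allows up to 3 UMIs. Rgs9, the striatal regulator of G protein signalling, had 1 UMI in each of these sets. Over all astrocytes of the cocaine libraries, females first, Drd1 had 8 and 7 UMIs, Drd2 0 and 3, and Rgs9 10 and 15. With so few UMIs in the whole class, the low counts say little about the nuclei with at least 3 Pde10a UMIs. In the latter, Ppp1r1b, the phosphoprotein DARPP-32, had 21 and 12 UMIs, and Rarb, a retinoic acid receptor, had 49 and 11. All 15 gate markers together were 254 and 259 CPM in these nuclei, against 250 and 367.5 CPM in cocaine astrocytes without Pde10a. The 13 astrocyte markers summed to 16082 and 17772 CPM there, against 15916 and 16289.9 CPM in nuclei without Pde10a. The 13 astrocyte genes include the glutamate transporters Slc1a2 and Slc1a3 and the gap junction gene Gja1. In astrocytes with 0 UMIs of the 15 MSN gate markers, Pde10a was 70.7 and 38.0 CPM in the saline and 507 and 426 CPM in the cocaine libraries, females first. The gap was as large in these nuclei as in all astrocytes, with a log2 difference of 3.07. Of the 15 gate markers, Rarb and Ppp1r1b were the largest in astrocytes, at 112.4 to 120.8 and 69.7 to 102.7 CPM over the libraries. In oligodendrocytes they held 13.4 to 22.0 and 15.2 to 26.5 CPM. The gate-marker sum and the set of nuclei with 0 of these UMIs thus depend largely on these genes. How much of their RNA in astrocytes came from MSN was not tested.

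**Figure D3:**
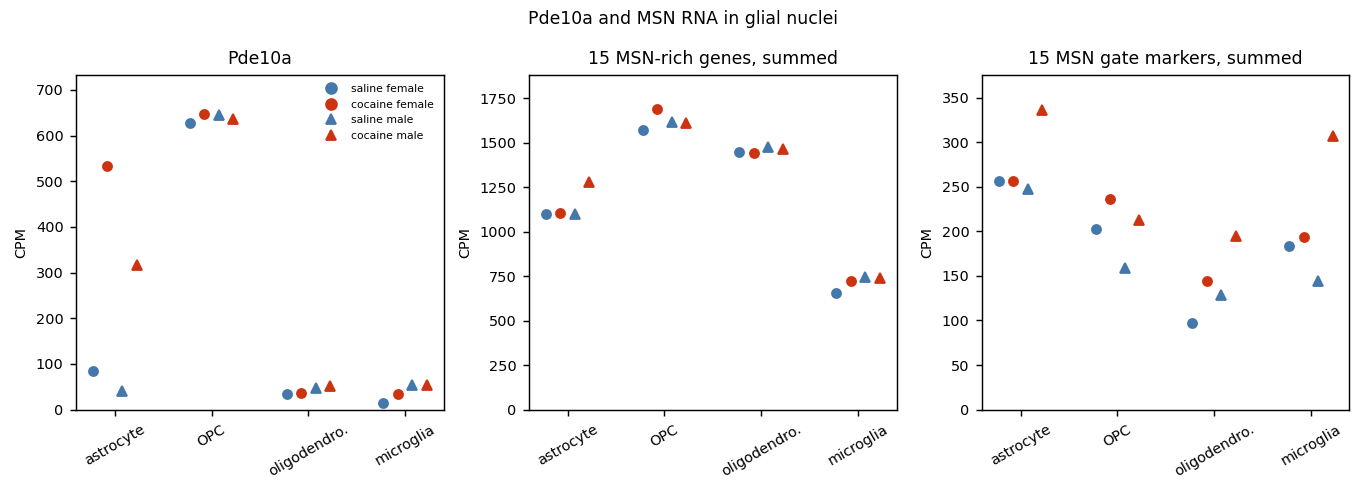
Levels in CPM, from 0, of Pde10a (left), of 15 MSN-rich genes summed (middle) and of 15 MSN gate markers summed (right) in 4 glial classes; each point is 1 library. Astrocyte Pde10a is 84.3 and 40.3 CPM in saline and 534 and 315 CPM in cocaine libraries, while the MSN-rich sum in astrocytes runs from 1097 to 1281 CPM.

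The MSN gate markers themselves were 256 and 248 CPM in saline and 257 and 336 CPM in cocaine astrocytes, so the cocaine male library was highest. Rarb and Ppp1r1b were the largest parts of each sum. In the cocaine male library the gate markers were also highest in oligodendrocytes, at 195 CPM against 97.5 to 144 CPM, and in microglia, at 307 CPM against 145 to 194 CPM. Within astrocytes 4 of the 15 gate markers were higher in both cocaine libraries and 1, Rarb, lower (14.4% of all tested genes were lower in both), with Tac1, the substance P precursor, at 5.1 and 9.5 CPM in saline and 10.6 and 15.3 CPM in cocaine libraries. Of 11 genes found in all neurons, 3 were higher and 0 lower. The part of this RNA in the Pde10a difference was not tested beyond these values.

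Pde7b, a cAMP-specific enzyme, was high in the same cocaine astrocytes as Pde10a. Over all astrocytes it stood at 652 and 517 CPM in the saline and 922 and 705 CPM in the cocaine libraries, females first, with no overlap, and the fitted log2 difference of 0.44 ± 0.11 is a description from the contrast that chose the genes. In nuclei without a Pde10a UMI, Pde7b was 610.5 and 515 CPM in saline and 563 and 545 CPM in cocaine libraries, so the treatments overlapped. In nuclei with at least 3 Pde10a UMIs it was 1784 and 1819 CPM in the cocaine female and male libraries and 1659 CPM in the 13 nuclei of the saline female library, but 544 CPM, on 8 UMIs, in the 3 nuclei of the saline male library. At an equal depth of 1000 UMIs, 69.5% and 77.6% of these cocaine nuclei had a Pde7b UMI, against 33.0% and 36.0% of cocaine nuclei without Pde10a. Pde4d did not show this step in both libraries: between nuclei with none and with at least 3 Pde10a UMIs it went from 582 to 941 CPM in cocaine females and from 625 to 625.5 CPM in cocaine males.

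**Figure D4:**
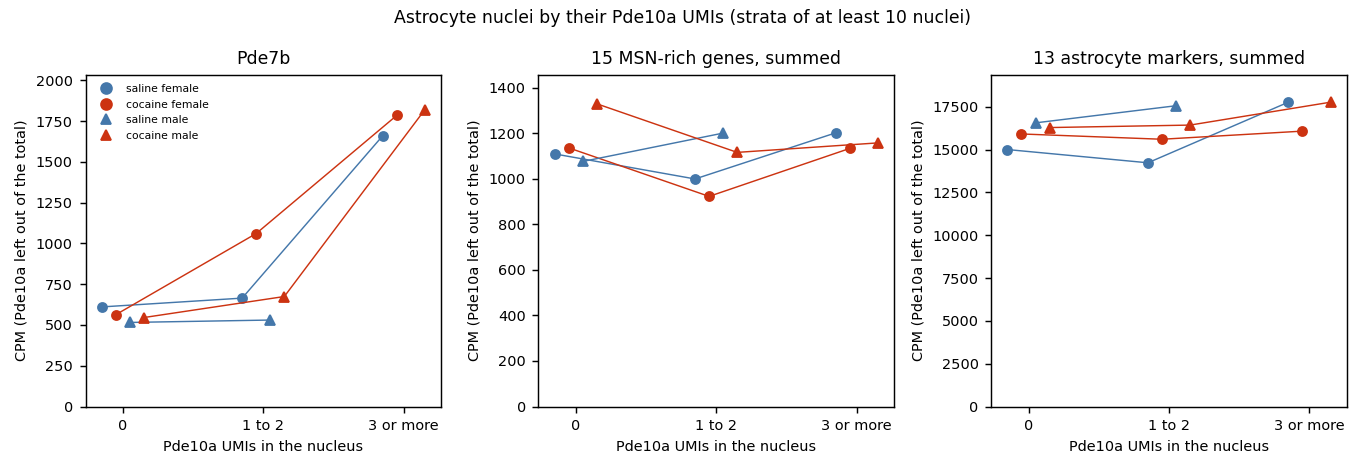
Levels in CPM, from 0 and with Pde10a left out of the total, of Pde7b, of 15 MSN-rich genes summed and of 13 astrocyte markers summed, in astrocyte nuclei with 0, with 1 to 2 and with 3 or more Pde10a UMIs; each line is 1 library, and sets under 10 nuclei are not drawn. Pde7b climbs from 563 to 1784 CPM and from 545 to 1819 CPM in the cocaine libraries. The MSN-rich sum there is 1133 and 1158 CPM at 3 or more Pde10a UMIs against 1136 and 1329 CPM at 0. Meis2 and Phactr1 make up 75.4% and 81.4% of that sum at 3 or more, females first. The other 13 genes, not drawn and with Pde10a in the total, are 278.5 and 215 CPM at 3 or more. In all astrocytes of the same libraries they are 217 and 272 CPM, so the sexes go opposite ways.

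In oligodendrocytes both Pde4 genes stood lower in both cocaine libraries, as did 10.1% of the 10685 tested genes. Of the 8 members, 2 were lower in this way and 2, Pde2a and Pde7b, were higher, beside 22.4% of genes that were higher. In this class 0.384% of genes passed the test of cocaine against saline. Pde4d, on 12512 UMIs in all, was 1126 and 1168 CPM in the saline and 885 and 842 CPM in the cocaine libraries, females first. Both cocaine libraries were below both saline libraries, and the fitted log2 difference of -0.46 ± 0.08 is again a description, since it was known when the genes were chosen. Pde4b, whose highest level of any class is in these nuclei, was 10081 and 9829 CPM in saline and 9156 and 8688 CPM in cocaine libraries, a smaller log2 difference of -0.21 ± 0.06 that is likewise a description. In the precursors Pde4d was 931 and 854 CPM in saline and 799 and 807 CPM in cocaine libraries (log2 -0.20 ± 0.09, adjusted p = 0.656, edgeR), and Pde4b differed by a log2 of 0.00. MSN gate markers were higher in cocaine oligodendrocytes, 144 and 195 CPM against 97.5 and 128 CPM, and in oligodendrocytes with 0 UMIs of them Pde4d gave the same log2 of -0.46.

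Outside astrocytes and oligodendrocytes, 1 of 64 pairs of a member and a class passed the test of cocaine against saline (edgeR, adjusted p under 0.05), and 13 had an unadjusted p under 0.05. The share of all genes and classes that passed was 0.324%. With the astrocytes and oligodendrocytes, 4 of 80 pairs passed beside 0.418% of all, but 3 of the 4 lie in the contrast that chose the genes, and nothing is read from that count. The pair was Pde10a in Sst interneurons, at 1260.3 and 929 CPM (297 and 255 UMIs in 30 and 54 nuclei) in saline and 1722 and 2308 CPM (630 and 595 UMIs in 64 and 54 nuclei) in cocaine libraries, females first. In this class 0.547% of genes passed. Cocaine libraries were above saline libraries in both sexes, with a log2 difference of 0.86 ± 0.15 (adjusted p = 0.000149, edgeR). The call did not hold under DESeq2 (adjusted p = 1.00) or without the saline male library (0.277) or the cocaine male library (0.0788), and adjusted p ran up to 1.00 over 11 alternatives.

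Sst interneurons release somatostatin and neuropeptide Y, and in this class Pde10a was broadly present, with UMIs in 81.5% to 100% of nuclei. Before any correction for depth, which was highest in the saline female library (median 7592 UMIs against 4484.5 to 5230.0 in the others), the 90th percentile was 19 and 9 UMIs per nucleus in saline and 22 and 32 in cocaine libraries, while the medians were 8.5 and 4 against 6 and 5. With each nucleus thinned to 1000 UMIs, a Pde10a UMI was seen in 50.0% and 50.0% of saline and in 64.1% and 63.0% of cocaine nuclei, and at least 3 were seen in 6.67% and 9.26% against 29.7% and 24.1%. Tac1, a D1-MSN marker, was also higher there, at 25.5 and 58.3 CPM in saline against 107 and 144 CPM in cocaine libraries. The 15 MSN gate markers together were 1846 and 2019 CPM in saline and 2033 and 1932 CPM in cocaine libraries, and the part of either in the Pde10a difference was not tested.

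**Figure D5:**
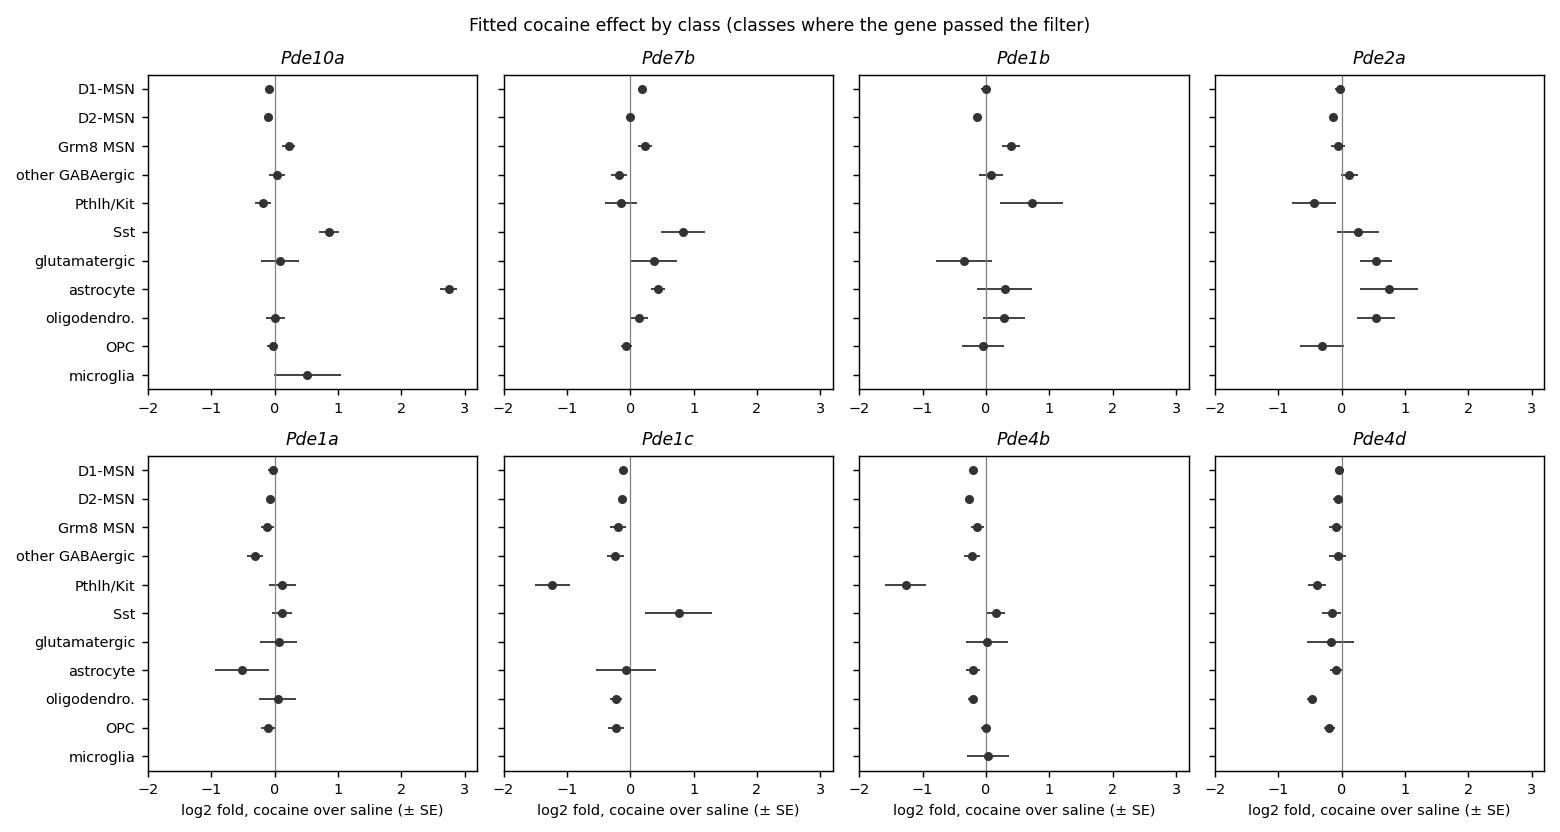
Fitted log2 difference of cocaine over saline (horizontal, bars are ± SE) for each gene in the tested classes where it passed the filter on low counts; 2 libraries per treatment with sex as a covariate. The value of Pde10a in astrocytes, 2.75, stands apart, and the MSN values lie between -0.27 and 0.39.

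In MSN 0 of 24 tests passed with edgeR and 0 with DESeq2, with 6 at an unadjusted p under 0.05 (edgeR), while 0.133% of genes passed in D1-MSN, 0.365% in D2-MSN and 0.441% in Grm8 MSN; the log2 differences lay between -0.27 and 0.39. Pde4b in D2-MSN came nearest, at 1742 and 2125 CPM in saline and 1536 and 1758 CPM in cocaine libraries, log2 -0.27 ± 0.06 (adjusted p = 0.0593, edgeR). It passed with no filter on low counts and under a stricter gate, and adjusted p ran up to 1.00 over the alternatives. Pde7b in D1-MSN was 1660.1 and 1763 CPM in saline and 2028 and 1921 CPM in cocaine libraries, log2 0.18 ± 0.07 (adjusted p = 0.512, edgeR). Pde10a itself was 2579.7 and 2628 CPM in saline and 2476 and 2508 CPM in cocaine D1-MSN, log2 -0.09 ± 0.06 (adjusted p = 0.728, edgeR). In D2-MSN, the class with most Pde10a, it was 2762 and 2868 CPM in saline and 2596 and 2813 CPM in cocaine libraries, log2 -0.10 ± 0.06 (adjusted p = 0.658, edgeR).

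Sex was the second contrast that did not choose the genes. Of 80 pairs of a member and a class, 4 passed (edgeR), all lower in males, and 20 had an unadjusted p under 0.05, while 0.878% of all genes and classes passed. Pde1a in D2-MSN was 287 and 283 CPM in females and 227 and 221 CPM in males, saline first, log2 -0.36 ± 0.07 (adjusted p = 0.00592, edgeR). Pde1c in oligodendrocytes was 374 and 308 CPM in females and 264 and 255 CPM in males, log2 -0.41 ± 0.09 (adjusted p = 0.0105, edgeR). Neither gene's sexes overlapped. The Pde1a call was lost in 4 of 11 alternatives and the Pde1c call in 6 of 12, without the saline female library among both.

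Pde10a in astrocytes was lower in males within both treatments, log2 -0.84 ± 0.13 (adjusted p = 1.47e-07, edgeR), but DESeq2 gave an adjusted p of 0.415, and adjusted p ran up to 0.989 over 13 alternatives. A fit without the cocaine female library gave 1.05; it holds no treatment term and sets 1 saline female library against males of both treatments. In astrocytes with 0 MSN marker UMIs the value was -0.39 and did not pass. Pde4b in Pthlh/Kit interneurons was 290.2 CPM in the saline female library, on 171 UMIs, and 101 CPM in cocaine females on 31 UMIs. The male libraries held 36.6 CPM with saline and 42.9 CPM with cocaine, on 15 and 7 UMIs. Its log2 difference was -2.52 ± 0.34 (adjusted p = 0.0029, edgeR), and without the saline female library it was -1.33 (adjusted p = 0.207, and up to 0.781 over 9 alternatives).

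Of 57 listed genes of cyclic nucleotide synthesis, G proteins, effectors and other phosphodiesterases, 19 to 48 were tested per class. In astrocytes 36 were tested, 0 were called higher and 1 lower in cocaine libraries (edgeR), with a median log2 of 0.09 beside 0.00 over all genes and with 1.21% of genes called. The gene was Adcy8, a calcium-stimulated adenylyl cyclase that makes cAMP, at 227 and 143 CPM (TMM-scaled) in saline and 134 and 80.8 CPM in cocaine libraries, log2 -0.79 ± 0.14 (adjusted p = 5.01e-06, edgeR). It was not called in 7 of 13 alternatives, DESeq2 and the fits without the saline female or either cocaine library among them. Within cocaine astrocytes Adcy8 was 94.3 and 71.4 CPM in nuclei without Pde10a and 231 and 122 CPM in nuclei with at least 3 Pde10a UMIs.

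In microglia 1 of 19 listed genes was called, where 0.307% of genes were: Adcy9, another adenylyl cyclase, at 1049.6 and 1053 CPM in saline and 644 and 676 CPM in cocaine libraries, log2 -0.68 ± 0.14 (adjusted p = 0.00169, edgeR). The call was lost under DESeq2 and in 3 of the 4 fits without 1 library. Among other GABAergic neurons 1 of 48 was called, where 0.708% of genes were: Pde3a, a cAMP phosphodiesterase inhibited by cGMP, at 54.4 CPM in saline females, 124 CPM in cocaine females, 142 CPM in saline males and 139.8 CPM in cocaine males. Its log2 difference of 0.61 ± 0.14 (adjusted p = 0.00919, edgeR) rests on that saline female library and was -0.12 without it. In the other 7 tested classes, MSN included, 0 of 283 pairs of a listed gene and a class passed with edgeR or with DESeq2, and 27 had an unadjusted p under 0.05 (edgeR). The share of genes called in those not yet given was 0.0653% in Pthlh/Kit interneurons, 0.169% in glutamatergic nuclei and 0.0799% in oligodendrocyte precursors.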

How the data were processed

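The values are UMI counts by gene and nucleus, deposited by the authors as 1 matrix for each library and made with Cell Ranger 6.1.2 per the file headers. Build rn7 is named in the submitters' processing notes; for strand and alignment options nothing is stated in the labels. Overlapping genes or near-identical copies may share reads. Of 26228 barcodes, 26224 had 200 genes or more and no more than 5% of UMIs from mitochondria, and 1381 with the highest Scrublet scores (scanpy 1.11.5) were removed, at 0.8% per 1000 nuclei. A marker gate assigned 21452 nuclei to 13 classes, and 3391 were left out. Leiden clusters (leidenalg 0.10.2) made without phosphodiesterase genes gave the same class for 94.8% of gated nuclei in named clusters. Counts were summed per library and class and tested, for the 11 classes with at least 25 nuclei per library, with edgeR 4.0.16 (quasi-likelihood, TMM, filterByExpr, sex and treatment in the model, R 4.3.3), adjusted by Benjamini-Hochberg over all genes of a class. DESeq2 1.42.0 was an alternative. With 4 libraries and 3 coefficients, 1 degree of freedom is left for the spread of a gene, which edgeR shrinks towards a trend. In astrocytes and Grm8 MSN the prior degrees of freedom were infinite, so that small p-values there rest on 1 trend. The prior was 655 in microglia, 178 in other GABAergic neurons and 113 in Sst interneurons, so p-values there rest almost wholly on the trend too. In the remaining tested classes it ran from 8.23 to 30.6, still above the 1 degree left for a gene. For cocaine and sex, p-values measure a difference against the spread between pooled libraries as shrunk towards that trend. For D1-MSN against D2-MSN, library is a block, so p-values measure how far the difference between the classes varies over libraries. The tests were checked on simulated data in which all genes shared the same spread and no library was outlying. That check does not cover calls that rest on a single library.

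The members, lists, tests and alternatives were chosen with earlier results of these data known. Named are the 8 members, other phosphodiesterase and cyclic nucleotide genes that passed (up to 3 in each direction and class), the 3 genes with the pattern most like each member, and genes of the neuronal lists. Crem is named outside these rules. Of 92 markers 88, of 62 cyclic nucleotide genes 57 and of 28 neuronal genes 26 were among the listed symbols. Some genes of these lists are not reported here.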

Additional observations from a re-analysis of the deposited data

Results flagged for a closer look

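Vascular nuclei were too few to test, with 17 to 23 per library. Here 2 members stood higher in both cocaine libraries than in both saline libraries, by more than counting error in the summed UMIs. Only higher members were flagged, and 1 member, Pde2a, stood lower in both. The share of all genes was not computed for this class. In tested classes 17.7% to 23.0% of genes were higher in both cocaine libraries. The intervals below take each UMI as independent, which UMIs of 1 nucleus are not. Pde10a had 42 UMIs in the cocaine libraries, or 838 CPM (exact Poisson 95% interval 604 to 1133), against 9 UMIs, or 180 CPM (82.2 to 341), in the saline libraries. Of the 42 UMIs, 36 were in the cocaine male library and 20 of these in 1 nucleus, while the cocaine female library, at 279 CPM, was close to the saline female library at 249 CPM. Pde7b had 87 UMIs in the cocaine libraries, or 1736.7 CPM (1391 to 2142), against 52 UMIs, or 1039 CPM (776 to 1362), in the saline libraries. Its 4 libraries held 28 and 24 UMIs in saline and 30 and 57 UMIs in cocaine, females first, with up to 17 in 1 nucleus. Astrocyte markers were also highest in the vascular nuclei of the cocaine male library, at 1926 CPM against 882 to 1549.5 CPM in the others, and their part in these values was not tested. The vascular class also held the D1-MSN marker list at 68.6 of 10000 UMIs, above its own vascular markers at 63.8. General MSN markers were at 2.9 and GABAergic markers at 0.5 of 10000 UMIs there. D1-MSN nuclei themselves held the D1-MSN list at 9.92 and the general MSN markers at 37.56, so the vascular values do not have the proportions of D1-MSN. The MSN gate markers, which include the D1-MSN list, summed to 5515 and 7519.8 CPM in the saline and 9377 and 7389.8 CPM in the cocaine libraries. Their part was not tested either.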

How the results depend on the processing

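Each result was recomputed with 1 choice changed at a time, except that the cocaine and sex fits without 1 library also drop the other covariate, since 3 libraries leave no residual with both. No replicate number pairs the libraries beyond sex, which the model holds as a covariate and which here equals the replicate block; without it (no replicate block), 2 members passed for cocaine. The number of members and classes that passed for cocaine against saline, 4 of which 3 lie in the contrast that chose the genes, so that nothing is read from its stability, was 1 under DESeq2, 7 with no filter on low counts and 0 to 5 when 1 library was left out. For sex, 4 passed in the main setting, 0 under DESeq2 or without the treatment covariate, 7 without removal of doublets and 1 to 6 when 1 library was left out. Between D1-MSN and D2-MSN, 7 of 8 passed, 4 without the library block and 4 to 6 when 1 library was left out; Pde1a, Pde1c, Pde4b and Pde4d passed with their sign in all 10 alternatives. Pde1b changed sign to 0.01 without the saline male library, and ran from -0.04 to 0.01 when 1 library was left out, and Pde7b to -0.06 with Leiden clusters.

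The log2 difference of Pde10a in astrocytes, 2.75, kept its direction in all 15 alternatives. It was 2.17 without removal of doublets, 2.48 with Leiden clusters, 3.07 in nuclei with 0 MSN marker UMIs, 3.42 without the 5% of nuclei with most Pde10a, and 2.29 to 3.35 when 1 library was left out. By sex it was 1.05 without the cocaine female library and 0.02 without the saline male library, with a range of -2.88 to 1.05 when 1 library was left out. Pde4d in oligodendrocytes ran from -0.51 to -0.42. Pde3a in other GABAergic neurons was -0.12 without the saline female library, up to 1.27 without another library, and -0.18 with Leiden clusters. The cause of these shifts was not tested. RLE scaling, nuclei with 0 MSN marker UMIs or without the 5% with most Pde10a for results other than Pde10a by cocaine, and the fits of Pde10a by cocaine with DESeq2, no filter or no covariate were chosen after seeing the data. With 39 to 51 UMIs in all for Pde10a in microglia and vascular nuclei, depth limits what can be seen there.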

Other observations

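Genes that accompanied Pde10a within cocaine astrocytes were listed by a rule chosen after the values were seen, as those with the largest smaller ratio of the 2 cocaine libraries between nuclei with at least 3 Pde10a UMIs and nuclei with none. These are descriptions of nuclei within a library, with no test. Ell2, an elongation factor for RNA polymerase, was highest on the list, at 740 and 846 CPM in Pde10a-rich nuclei of the female and male libraries against 198 and 194 CPM in nuclei without Pde10a. Over all astrocytes Ell2 was 197 and 172 CPM in saline and 340 and 272 CPM in cocaine libraries. Pde7b came next, followed by Rab27b, a vesicle trafficking GTPase, at 270.0 and 373 CPM against 98.6 and 114 CPM. Mapk10 was next at 391 and 158 CPM against 136 and 54.3 CPM. Slco1c1, a thyroid hormone transporter, stood at 422 and 516 CPM against 163 and 208 CPM. Hdac4, a histone deacetylase, was at 754 and 868 CPM against 335 and 283 CPM, and Cbs, an enzyme of sulfur amino acid metabolism found in astrocytes, at 818.5 and 696 CPM against 371 and 272 CPM. Crem, a cAMP-responsive factor of the cyclic nucleotide list, was not on the list made by this rule. Nor was it called between cocaine and saline in astrocytes. It was 110 and 144 CPM in Pde10a-rich nuclei against 56.8 and 63.9 CPM in nuclei without Pde10a, on 39 and 20 UMIs.

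In saline libraries the same set of astrocytes was small. The 13 Pde10a-rich nuclei of the saline female library held Crem at 191 CPM on 10 UMIs, against 80.6 CPM in the 367 nuclei without Pde10a.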
